A study of Mus musculus with 6 samples.

Results

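The miRNAs described here are those of stratified epithelium: every mature arm named miR-205, miR-203, miR-184, miR-31 or miR-375 in the deposited miRNA table. They are 9 of the 1277 mature miRNAs listed, 2 arms each for miR-205, miR-203, miR-184 and miR-31 and the 3p arm alone for miR-375. They were chosen by name, with the comparison of CYP and Control libraries already known, and were selected on fold changes seen there, so their differences between the groups are given as a description, with no test. The libraries came from cells isolated from mouse urinary bladder, 3 from CYP mice and 3 from Control mice, both put under treatment at 8 weeks of age. CYP mice were given cyclophosphamide, an alkylating agent that injures the bladder lining through its metabolites in urine. They had 80 mg/kg intraperitoneally 4 times, every other day (days 2, 4, 6 and 8), and are labelled as 8 days after induction. Control mice received saline by the same route and are also called naive in the labels, which name neither strain nor sex.

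A miRNA is cut from a hairpin whose 5′ and 3′ sides (the 5p and 3p arms) can each be loaded into Argonaute, where bases 2 to 8, the seed, pair with target mRNAs. miR-205 is made in the basal cells of stratified epithelia and is also found in the bladder lining, the urothelium. miR-203 marks the differentiating upper layers of the epidermis, where it represses the stem cell factor p63. miR-31 is best known from keratinocytes, in which wounding induces it, and miR-184 from cornea and lens. miR-375 is a miRNA of pancreatic islet and neuroendocrine cells that is also found in some epithelia.

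RefSeq gave a mature sequence for 8 of the 9 arms (build GRCm38.p6), all except mmu-miR-375-3p. The 4 more abundant arms are shown, of which all but miR-205-5p lay apart between the groups. Both arms are shown for miR-205 and miR-184, because the arms of these hairpins did not move alike. Capitals mark the seed.
mmu-miR-205-5p: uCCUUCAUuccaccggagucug
mmu-miR-205-3p: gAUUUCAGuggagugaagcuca
mmu-miR-203-3p: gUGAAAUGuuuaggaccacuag
mmu-miR-184-3p: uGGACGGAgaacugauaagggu
mmu-miR-184-5p: cCUUAUCAcuuuuccagccagc
mmu-miR-31-5p: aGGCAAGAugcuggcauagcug
All 8 arms with a sequence have a seed of their own, and 0 other RefSeq mouse miRNAs in that table share any of them, so the arms are not a seed family. Each is 22 bases long except mmu-miR-31-3p, which has 23.

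The 5 hairpins lie apart from each other in the genome (GRCm38, RefSeq positions, with neighbours from GENCODE M21). Mir205 lies on chromosome 1 from 193507463 to 193507530 on the minus strand, within an exon of the lincRNA 4631405K08Rik. Mir31 lies on chromosome 4 from 88910557 to 88910662 on the minus strand, within an exon of the lincRNA AL805899.1. Mir203 lies on chromosome 12 from 112130880 to 112130955 on the plus strand, 3321 bp beyond the gene Aspg. Mir184 lies on chromosome 9 from 89802260 to 89802328 and Mir375 on chromosome 1 from 74900658 to 74900721, both on the minus strand and outside other annotated genes. RefSeq also annotates a miR-203b hairpin on the opposite strand of the Mir203 locus. No source used here says whether strand was used in counting, so reads of that pair may not be told apart.

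The miRNA table held from 9403147 to 11454264 unique molecular identifiers (UMIs, tags that mark single cDNA molecules) in CYP libraries and from 9110719 to 12180739 in Control libraries. Levels below are in CPM, the UMIs of a miRNA relative to all miRNA UMIs of its library after trimmed-mean (TMM) scaling. Reads too short to count made up from 12.8% to 15.6% of CYP reads and from 6.74% to 11.7% of Control reads, and their part in the differences below was not tested. Epithelial miRNAs were present in every library, the 5 main miR-200 family members summing to between 26009 and 30484 CPM in CYP and between 26239 and 27927 CPM in Control. Muscle miRNAs were far more abundant, with 6 of them summing to between 265887 and 297741 CPM in CYP and between 296121 and 345847 CPM in Control. Most of that sum was miR-143-3p alone, at a mean of 219471 CPM in CYP and 252809 CPM in Control. In such mixed samples, fewer cells of a type and less RNA per cell cannot be told apart.

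Together the 9 arms took 2.88%, 2.52% and 3.01% of the miRNA UMIs in CYP libraries, against 2.39%, 2.603% and 2.55% in Control libraries. mmu-miR-205-5p alone made up 55.1 ± 2.50% of that sum in CYP and 53.9 ± 1.71% in Control (SD, n = 3 each). Both the sum and the share of miR-205-5p overlapped between the groups. What differed was the balance of the other arms, with miR-31-5p and miR-205-3p higher and miR-203-3p and miR-184-3p lower in CYP.

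**Figure D1:**
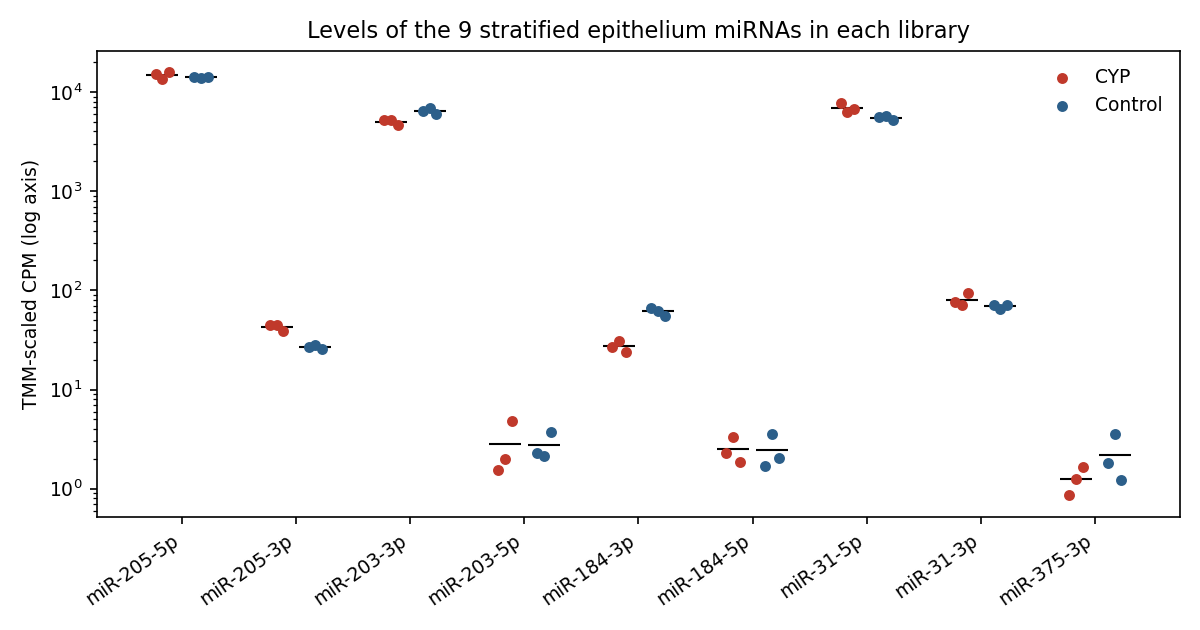
TMM-scaled CPM on a log axis for the 9 arms, with each library a point (CYP red, Control blue) and the group mean a black line. The levels span from about 1 CPM for miR-375-3p, whose CYP mean was 1.25 CPM, to a mean of 14829 CPM for miR-205-5p in CYP.

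miR-205-5p, the arm credited with the work of miR-205 in basal cells, was the most abundant. It stood at 15135, 13414 and 15937 CPM in CYP libraries, against 14284, 13865 and 14105 CPM in Control libraries. The CYP libraries lay on both sides of the Control libraries, and it ranked between 15 and 20 among all miRNAs in CYP and between 17 and 18 in Control. Its log2 fold change was 0.07 ± 0.08 (SE) by edgeR's fit over all miRNAs, and it turned to −0.05 with upper-quartile factors.

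miR-205-3p, the less abundant arm of the same hairpin, was higher in CYP. It was counted in 525, 465 and 403 UMIs in CYP libraries, against 271, 252 and 310 UMIs in Control libraries. On the scaled level this was 44.9, 44.4 and 39.2 CPM in CYP, against 27.1, 28.3 and 25.3 CPM in Control. Even the lowest CYP library was above the highest Control library, at a log2 fold change of 0.67 ± 0.12 (1.59-fold).

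mmu-miR-203-3p was lower in CYP. Its level was 5195, 5175 and 4640 CPM in CYP libraries, against 6359, 6844 and 5968 CPM in Control libraries. No CYP library reached the lowest Control library, and the log2 fold change was −0.35 ± 0.08, or 1.28-fold lower. Its size moved with the scaling: it was −0.24 with library totals, where the median of all miRNAs stood at 0.14, and −0.47 with upper-quartile factors, where that median stood at −0.10.

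miR-203-5p, the other side of that hairpin, was rare, with 18, 21 and 50 UMIs in CYP libraries and 23, 19 and 46 UMIs in Control libraries. Replicate 3 of each group stood far above the others, and the groups overlapped. The log2 fold change of −0.0027 ± 0.42 had an error wider than the change in miR-203-3p, and it ran from −0.65 without CYP replicate 3 to 0.31 without Control replicate 3.

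miR-184-3p, one of the most abundant miRNAs of the lens and cornea, showed the largest difference of the 9. It was counted in 312, 326 and 243 UMIs in CYP libraries, against 667, 558 and 667 UMIs in Control libraries. Its level was 26.7, 31.2 and 23.7 CPM in CYP, against 66.8, 62.6 and 54.5 CPM in Control. The groups stood far apart, at 2.26-fold lower in CYP with a log2 fold change of −1.17 ± 0.14.

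miR-184-5p, the rarer arm of that hairpin, overlapped between the groups. It had 27, 35 and 19 UMIs in CYP libraries, against 17, 32 and 25 UMIs in Control libraries. Its log2 fold change was 0.05 ± 0.32, which ran from −0.18 to 0.43 as libraries were left out.

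mmu-miR-31-5p was higher in CYP. Its level was 7755, 6276 and 6765 CPM in CYP libraries, against 5622, 5747 and 5183 CPM in Control libraries. CYP replicate 1 was the highest of all, and the lowest CYP library lay above the highest Control library. The log2 fold change was 0.33 ± 0.09 (1.26-fold), and it was 0.23 without CYP replicate 1.

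miR-31-3p pointed the same way with overlapping groups, at 76.7, 70.3 and 94.6 CPM in CYP libraries and 70.8, 65.3 and 71.8 CPM in Control libraries. CYP replicate 3 stood highest. The log2 fold change was 0.22 ± 0.12, and it was 0.089 without CYP replicate 3 and 0.33 without CYP replicate 2.

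miR-375-3p was close to the lower limit of the table, in which every listed miRNA reaches at least 10 UMIs in some library. It had 10, 13 and 17 UMIs in CYP libraries, against 18, 32 and 15 UMIs in Control libraries. The groups overlapped, the log2 fold change was −0.79 ± 0.42, and it ran from −0.25 without Control replicate 2, its highest library, to −1.11 without Control replicate 3.

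All 9 arms passed edgeR's default filter on low counts. By the adjusted p threshold of 0.05 over all 885 miRNAs tested, 4 of the 9 were called, 2 higher (miR-205-3p and miR-31-5p) and 2 lower (miR-184-3p and miR-203-3p), where 12.3% of all miRNAs were called. For the same 4 the groups did not overlap, as for 30.2% of all miRNAs tested. Since the arms were chosen with this comparison known, the counts describe them and nothing is read from them. The same holds for the calls in the alternatives, which refit libraries of that comparison. miR-184-3p and miR-205-3p were called in each of the 14 alternatives run. Library totals, and leaving out Control replicate 2 (log2 fold change −0.28), ended the call of miR-203-3p. miR-31-5p was called in 9 of the 14 alternatives, and was lost with RLE factors (0.32), with upper-quartile factors (0.21), and without CYP replicate 1 or Control replicates 1 or 3 (0.33 and 0.27 for these Control libraries).

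**Figure D2:**
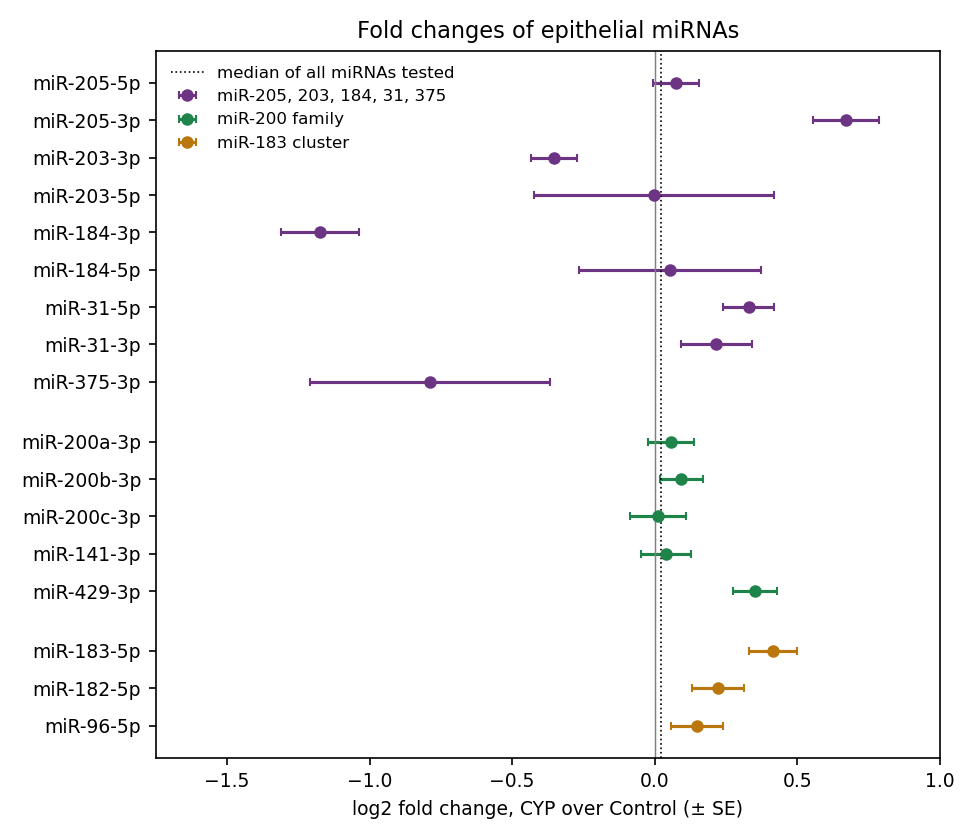
edgeR log2 fold change of CYP over Control with its SE for the 9 arms, the miR-200 family and the miR-183 cluster, 3 libraries a group. The arms spread from −1.17 to 0.67 while the 5 miR-200 family members lie between 0.01 and 0.35, and the dotted line is the median of all miRNAs tested, 0.02.

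In order of level, miR-205-5p led in both groups by a wide margin. In CYP it was followed by miR-31-5p (6932 ± 753 CPM) and then miR-203-3p (5003 ± 315 CPM). In Control miR-203-3p (6390.1 ± 439 CPM) came before miR-31-5p (5517 ± 296 CPM), with no overlap between these 2 arms within either group. The next 3 also changed order. In CYP they were miR-31-3p at 80.6 ± 12.6 CPM, miR-205-3p at 42.9 ± 3.16 CPM and miR-184-3p at 27.2 ± 3.78 CPM, each apart from the next. In Control they were miR-31-3p at 69.3 ± 3.50 CPM, miR-184-3p at 61.3 ± 6.26 CPM, whose libraries overlapped those of miR-31-3p, and miR-205-3p at 26.9 ± 1.49 CPM. miR-203-5p, miR-184-5p and miR-375-3p came last, all with group means under 3 CPM. Their libraries overlapped each other, except that miR-375-3p lay below miR-184-5p in CYP. Mature arms are of nearly equal length, but how well each is captured by the library kit was not measured, so orders between arms hold for counts only.

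The exchange of miR-31-5p and miR-203-3p can be read without any scaling between libraries, from the ratio of their UMIs within a library. miR-31-5p over miR-203-3p was 1.49, 1.21 and 1.46 in CYP libraries, against 0.884, 0.840 and 0.869 in Control libraries. The ratio was above 1 in every CYP library and below 1 in every Control library, and the mean log2 ratio was 0.68 higher in CYP. Leaving out any 1 library moved that difference to between 0.62 and 0.77. The ratio was chosen after its values were seen.

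**Figure D3:**
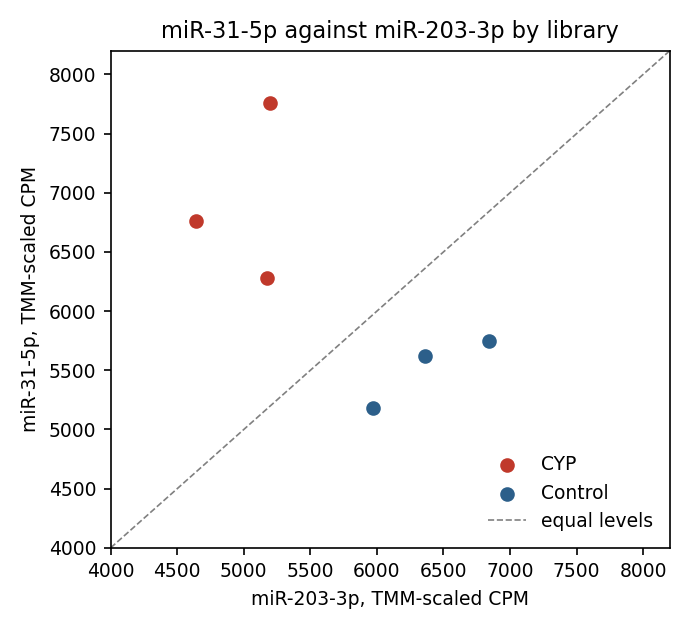
miR-31-5p (y axis) against miR-203-3p (x axis) in TMM-scaled CPM, 1 point a library, with the dashed line marking equal levels. The 3 CYP libraries lie above the line and the 3 Control libraries below it.

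The miR-200 family, whose members keep epithelial cells epithelial by repressing Zeb1 and Zeb2, gives a measure of epithelial RNA in the same libraries that the choice of the 9 arms did not use. Of its 5 main members 1 rose and 4 did not pass the test, with a median log2 fold change of 0.06 against 0.02 over all miRNAs tested. miR-429-3p was the member that rose, 1.28-fold, at 4089, 3719 and 3597 CPM in CYP libraries against 3064, 2857 and 3018 CPM in Control libraries (log2 fold change 0.35 ± 0.08, edgeR adjusted p = 0.0137). The others were miR-200a-3p at 0.06 ± 0.08, miR-200b-3p at 0.09 ± 0.08, miR-200c-3p at 0.01 ± 0.10 and miR-141-3p at 0.04 ± 0.09. The miR-183 cluster, known from sensory epithelia, had 1 of 3 members rise. Over all miRNAs tested 12.3% were called, so 1 call in lists this short says little. Both lists were chosen with earlier results of these data known. miR-183-5p averaged 1265 ± 96.7 CPM in CYP and 949 ± 41.9 CPM in Control (SD, n = 3 each, log2 fold change 0.41 ± 0.08, edgeR adjusted p = 0.00858). miR-182-5p stood at 0.22 ± 0.09 and miR-96-5p at 0.15 ± 0.09. Both calls were lost with upper-quartile factors (0.23 for miR-429-3p and 0.30 for miR-183-5p), without CYP replicate 1 (0.28 and 0.35) and without Control replicate 3 (0.35 and 0.37).

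Set against the summed UMIs of these 5 miR-200 family members in the same library, miR-203-3p and miR-184-3p were lower in CYP. miR-203-3p amounted to 17.04%, 17.74% and 17.84% of the miR-200 sum in CYP libraries, against 22.8%, 26.1% and 22.7% in Control libraries. miR-184-3p amounted to 0.0875%, 0.107% and 0.0909% in CYP, against 0.239%, 0.239% and 0.208% in Control. Neither arm's groups overlapped, and the difference of mean log2 ratios, CYP minus Control, was −0.44 for miR-203-3p and −1.27 for miR-184-3p. The sum includes miR-429-3p, which rose. miR-205-5p amounted to 49.6%, 46.0% and 61.3% of the miR-200 sum in CYP, against 51.1%, 52.8% and 53.8% in Control. Its groups overlapped, with CYP replicate 3 the highest library. miR-31-5p amounted to 25.4%, 21.5% and 26.0% in CYP, against 20.1%, 21.9% and 19.8% in Control. CYP replicate 2 lay within the Control range, so by this measure the groups of miR-31-5p overlapped, at a log2 difference of 0.24. miR-205-3p kept groups that did not overlap, with a difference of 0.58. No test was made of these ratios, for the reason given above. The share of all miRNAs without overlap was not taken for this ratio, and by level it was 30.2%.

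**Figure D4:**
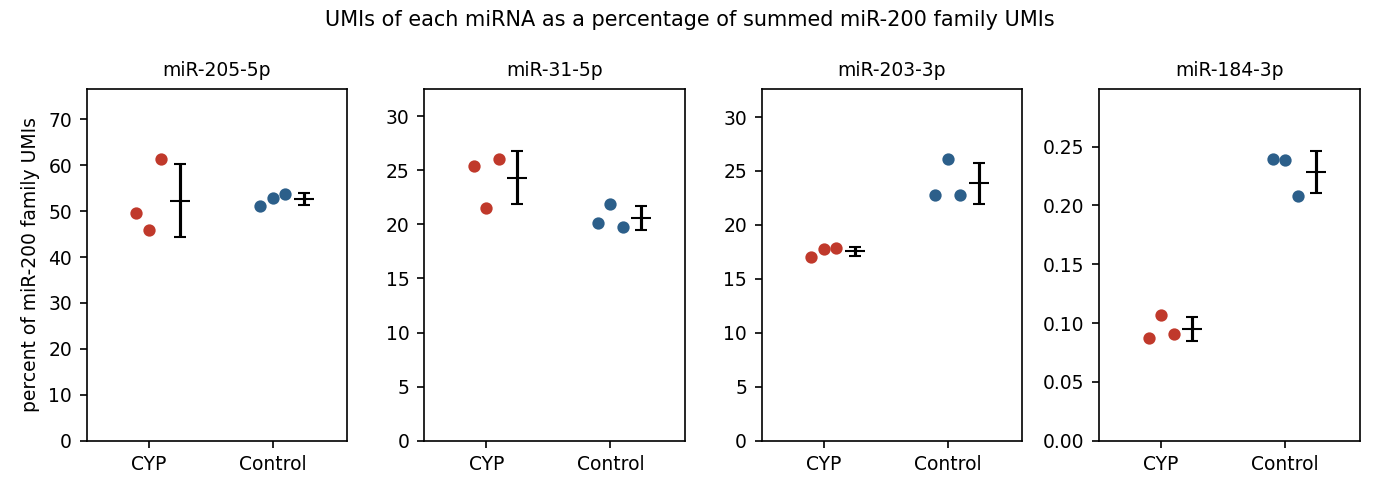
UMIs of 4 arms as a percentage of the summed miR-200 family UMIs of the same library, a point per library with the mean and SD beside it (n = 3 a group) and a separate linear axis from 0 in each panel. miR-203-3p and miR-184-3p are lower in all 3 CYP libraries, while miR-205-5p and miR-31-5p overlap between the groups.

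Within a hairpin, the share of the less abundant arm was higher in CYP for miR-205 and miR-184. The 3p arm made up 0.296%, 0.330% and 0.246% of miR-205 UMIs in CYP libraries, against 0.190%, 0.204% and 0.179% in Control libraries. The sequence of the Mir205 hairpin shows where both arms lie, here in capitals, with the 5p arm first.
Mir205: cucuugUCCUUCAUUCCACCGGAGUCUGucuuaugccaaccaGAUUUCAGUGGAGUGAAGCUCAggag
The 5p arm made up 7.96%, 9.70% and 7.25% of miR-184 UMIs in CYP, against 2.49%, 5.42% and 3.61% in Control, on counts of 17 to 35 UMIs. For neither hairpin did a CYP library fall within the Control range, with log2 arm ratios 0.60 higher for miR-205 and 1.24 higher for miR-184. In miR-205 it was the less abundant 3p arm whose level lay apart between the groups, and in miR-184 the more abundant 3p arm, while both 5p arms overlapped.

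For miR-31 and miR-203 the shares overlapped between the groups. miR-31-3p was 1.16 ± 0.204% of both arms in CYP and 1.24 ± 0.121% in Control (SD, n = 3 each), and miR-203-5p was 0.0577 ± 0.0410% in CYP and 0.0434 ± 0.0171% in Control. Among 227 hairpins with both arms tested, the log2 arm ratio of the less abundant to the more abundant arm did not overlap between the groups in 26.4%, and its median difference was 0.06. In that order, from the highest difference of CYP over Control, miR-184 was number 12, miR-205 number 28, miR-203 number 71 and miR-31 number 159. Among the 88 hairpins whose less abundant arm averaged at least 10 CPM in both groups, miR-205 was number 2 and miR-31 number 74. These ranks were taken after the shares had been seen and come from the comparison in which the arms were chosen. Other epithelial hairpins, named after their values were seen, moved the same way. The log2 arm ratio was higher in CYP without overlap for miR-200c (0.52), miR-183 (0.42), miR-141 (0.36), miR-200b (0.25) and miR-200a (0.25). For miR-182 it was higher with overlapping groups (0.31). Hairpins outside the epithelial lists, also named after their values were seen, did so too, such as miR-21a (0.76), miR-27b (0.51) and miR-127 (0.37). Others were lower in CYP without overlap, such as miR-503 (−0.51) and miR-221 (−0.24). A higher share was therefore not particular to miR-205 and miR-184, nor to epithelial hairpins.

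**Figure D5:**
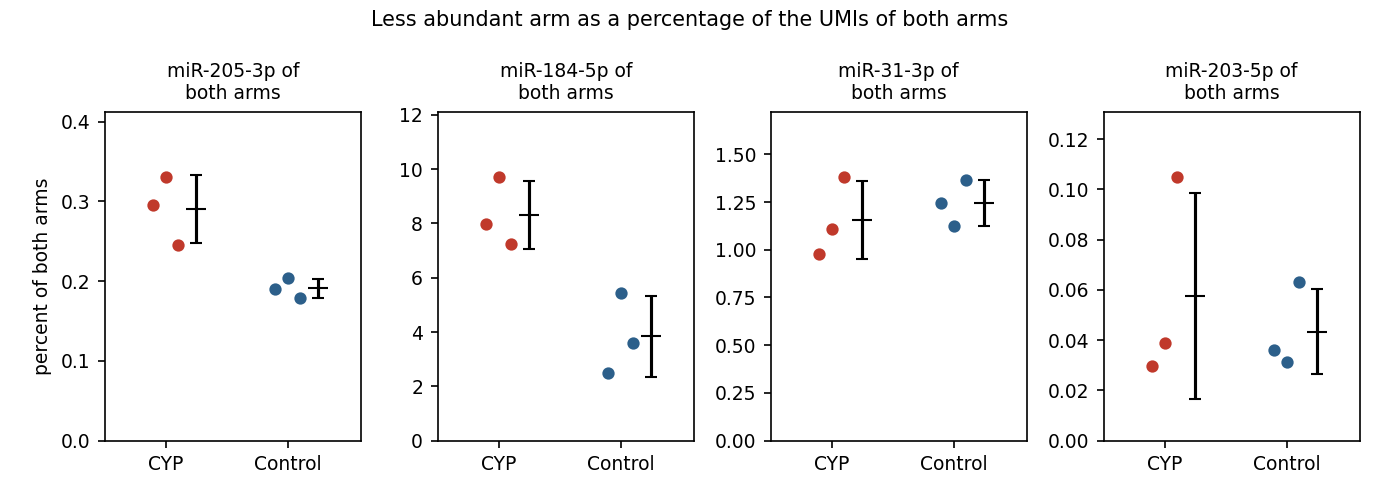
The less abundant arm as a percentage of the UMIs of both arms of its hairpin, a point per library with the mean and SD beside it (n = 3 a group) and a separate linear axis from 0 in each panel. CYP libraries lie above Control libraries for miR-205 and miR-184 and overlap them for miR-31 and miR-203.

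The miRNAs nearest to each arm were sought by the root mean square difference of log2 CPM over the 6 libraries, each profile centred on its mean, among 377 other miRNAs of at least 10 CPM. For miR-205-5p they were miR-96-5p (0.05), miR-186-5p (0.05) and miR-540-3p (0.05), against a median of 0.19 over all miRNAs compared with that arm. For miR-203-3p they were miR-379-5p (0.05), miR-139-3p (0.07) and miR-127-3p (0.07), against a median of 0.23. For miR-31-5p they were miR-505-5p (0.05), miR-501-3p (0.07) and miR-429-3p (0.09), against a median of 0.27. The nearest to miR-184-3p were miR-376b-3p (0.15), miR-144-5p (0.19) and miR-150-5p (0.21), with log2 fold changes of −1.03, −1.22 and −1.19. The median for miR-184-3p was 0.58. For miR-375-3p, compared with 378 miRNAs, the nearest were miR-337-3p (0.30), miR-146a-5p (0.34) and miR-20b-5p (0.36), against a median of 0.51. No 2 of the 5 arms used as starting points were among each other's nearest profiles. miR-375-3p averaged under 10 CPM and so could not be a neighbour. The profiles also hold the group differences on which the arms were chosen, so nothing is read from this.

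Of 6 miRNAs known to promote healing of skin wounds, a setting in which miR-31 is also induced, 2 rose and 4 did not pass. Counts in this and the next list stand beside 12.3% called over all miRNAs tested. Both lists were chosen with earlier results of these data known. miR-132-3p averaged 194 ± 23.0 CPM in CYP and 67.9 ± 5.47 CPM in Control (SD, n = 3 each, log2 fold change 1.51 ± 0.12, edgeR adjusted p = 1.03e-05). miR-21a-5p had a log2 fold change of 0.79 ± 0.08 (edgeR adjusted p = 8.22e-05). The list's median was 0.32. Of 5 neuronal and neuroendocrine miRNAs, listed beside miR-375, 1 rose and 2 fell, at a median of −0.20. miR-7a-5p, abundant in islet cells, averaged 468 ± 63.1 CPM in CYP and 323 ± 20.7 CPM in Control (log2 fold change 0.53 ± 0.11, edgeR adjusted p = 0.00917), a call lost with upper-quartile factors (0.42), without CYP replicate 1 (0.44) and without Control replicate 3 (0.48). miR-129-5p, of brain, fell by 0.95 on the log2 scale (edgeR adjusted p = 0.00645), and miR-7b-5p, from a separate hairpin of the miR-7 family and named after its values were seen, fell by 0.65 (edgeR adjusted p = 0.0118).

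Among the lists for other cell types, those of leukocytes and erythroid cells held miRNAs that passed the test. Over all miRNAs tested the share called was 12.3%, and these lists too were chosen with earlier results of these data known. Of 6 muscle miRNAs edgeR called 0, with 1 at an unadjusted p under 0.05 and 1 called by DESeq2, at a median of −0.20. miR-133a-3p stood at −0.25 and miR-143-3p at −0.20, and 5 of the 6 lay between −0.25 and −0.16. The other, miR-206-3p of skeletal muscle, named after its values were seen, was at 1.76 ± 0.72, with 40.9, 54.4 and 196 CPM in CYP libraries against 25.8, 18.1 and 41.7 CPM in Control libraries. Its groups overlapped, and CYP replicate 3 stood far above the rest. The leukocyte list had 2 of its 6 miRNAs fall, at a median of −0.30 and a summed level of 3427 to 4045 CPM in CYP against 4370 to 4534 CPM in Control. The 2 were miR-150-5p of mature lymphocytes (−1.19, edgeR adjusted p = 0.000139) and miR-146a-5p, induced by NF-kB (−0.74, edgeR adjusted p = 0.00294). The other 4, which did not pass and are named after their values were seen, were miR-142a-3p at −0.31 and miR-142a-5p at −0.29, both pan-leukocyte, the myeloid miR-223-3p at 0.13, and miR-155-5p of activated leukocytes at 0.03. Of 4 erythroid miRNAs 3 fell, at a median of −1.10, with a summed level of 324 to 353 CPM in CYP against 475 to 614 CPM in Control. They were miR-144-5p (−1.22, edgeR adjusted p = 0.000168), miR-486a-5p (−0.50, edgeR adjusted p = 0.0140) and, named after its values were seen, miR-144-3p (−1.14, edgeR adjusted p = 0.0140). The other, miR-451a, also named after its values were seen, was lower without overlap but did not pass (−1.07 ± 0.33, edgeR adjusted p = 0.0962). DESeq2 called all 4. edgeR called 0 of the 2 endothelial arms of miR-126a (median −0.15, 1 at an unadjusted p under 0.05, 1 by DESeq2). It called 0 of the 2 stromal arms tested of 3, miR-199a-5p and miR-214-3p (median −0.05, 0 at an unadjusted p under 0.05, 0 by DESeq2). The part of these shifts in the lower miR-203-3p and miR-184-3p was not tested.

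The authors' deposited table gives fold changes of CYP over Control for the same arms. In the authors' deposited table miR-184-3p stood at 0.46, miR-203-3p at 0.76, miR-205-3p at 1.49, miR-31-5p at 1.2 and miR-205-5p at 1.01. The authors' deposited table puts miR-375-3p at 0.79, where edgeR's fit here put it at 0.579.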

How the data were processed

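Total RNA (100 ng a library) went into a Qiagen small RNA library kit, per the labels. The authors deposited whole-number counts of UMIs and reads per miRNA and of reads per RNA class, not normalized, per the file headers. Fold changes in the authors' deposited table are a ratio of CYP to Control after DESeq2 normalization, per the file headers. FastQC 0.11.7, Trim Galore, STAR 2.6, DESeq2 and mm10 are named in the submitters' processing notes. The counting step and its tool are not named there.

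The test was edgeR 4.0.16 (R 4.3.3) on UMI counts: robust quasi-likelihood, TMM scaling, filterByExpr with a minimum count of 10 and total of 15, and Benjamini-Hochberg adjustment over all 885 miRNAs kept of 1277. SE is the log2 fold change divided by the root of edgeR's F. Ratios used unscaled UMIs. The fit was tested on simulated data. Named miRNAs are all 9 arms, both epithelial lists, the 2 members with the smallest p of each other list and the 3 nearest profiles per arm. Arms and lists were chosen with earlier results of these data known. The labels give no separate animals within a group, so p-values cover only the spread among these libraries, and that spread may be technical. No 2 libraries of a group agreed within sampling noise, and CYP replicate 3 stood furthest from the others of its group. Chi-squared per degree of freedom was 93.7 and 125 for its pairs, against 24.1 for CYP replicates 1 and 2. Control pairs lay between 29.2 and 41.9. Errors do not cover capture bias. Alternatives were 3 other scalings, 2 other filters, read counts, DESeq2 1.42.0, a replicate block and leaving out each library. tRNA, other RNA and unannotated reads were not used.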

Additional observations from a re-analysis of the deposited data

How the results depend on the processing

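The count of called arms was 4 and stayed between 3 and 4 in all 14 alternatives (3 to 4 with 1 library left out). Over all miRNAs, 109 were called, 142 with the replicate block, and from 58 to 139 with 1 library left out, the low end without CYP replicate 1 (58) and without Control replicate 3 (62). The split of higher to lower calls was 59 to 50, 78 to 29 with library totals and 37 to 95 with upper-quartile factors. Of the 8 miR-200 family and miR-183 cluster miRNAs 2 were called, 4 with library totals, 2 by DESeq2, 0 with upper-quartile factors, and from 0 to 3 with 1 library left out, with 0 without CYP replicate 1 or Control replicate 3. In each of these 3 edgeR fits with 0 calls, 2 lay at an unadjusted p under 0.05. Same-numbered libraries of the groups did not deviate together (correlations 0.09, −0.19 and 0.08). The labels do not say that they are paired, and so few libraries cannot exclude it. With the replicate block 4 arms were called, as without it. Filtering at a mean of 10 CPM gives no value for miR-203-5p, miR-184-5p and miR-375-3p. Differences of the arms at 10 to 50 UMIs are limited by depth. No called arm changed sign, but the arms were chosen in this same comparison, so nothing is read from that.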
